A study of Homo sapiens with 30 samples.

Results

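Lineage 13 and the group named Pop, each grown on its own, were compared by bulk RNA sequencing, 3 libraries against 3, which are 6 of the 30 samples of the series. Lineage 13 is listed as an MDA-MB-231 derived lineage of wild-type genotype, distinct from the other lineages. Pop carries the same entries for cell line, cell type and genotype, and beyond its name the labels give no account of it. Both groups were cultured without any treatment for about 24 h in RPMI-1640 with 10% dialyzed serum and 2 mM glutamine, a condition called isolation to set it apart from the co-cultures of other lineages in the series. Lineages 03 and 10, with 3 isolation libraries each and the same entries, are in the same table and served for direct tests of lineage 13 against groups other than Pop. The genes compared were all those of the table other than 28 with date-like names and 1001 named as antisense transcripts, which left 25446 genes. Of these, 14241 passed the filter on low counts and were tested. Whether replicates were grown as separate cultures is not stated, so every p-value measures the spread between these samples, which may be technical. In bulk RNA, fewer cells that express a gene and less RNA of it per cell cannot be told apart.

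MDA-MB-231 is a triple-negative breast cancer line with a mesenchymal, motile phenotype, and its cells differ among themselves, so that lineages grown out of it can hold stable expression states of their own. Such states are usually described through families of genes that turn together: adhesion molecules and extracellular matrix, which set how cells hold to each other and to their surroundings; keratins and junction proteins, which mark epithelial character; interferon-stimulated genes, which answer interferon signalling and are often active at a low level in cancer lines; and secreted cytokines and proteases. Some genes are either used or silent in a given clone, with hardly any middle level, among them the cancer-testis antigens, germline genes that tumor cells can switch on. Expression is given below as CPM, counts per M counts of the library after a correction for library composition, and a gene is called higher or lower where its edgeR p-value, adjusted by the Benjamini-Hochberg method over all genes, is under 0.05. Values after ± are SD for CPM (n = 3 in each group) and SE for log2 fold changes, which are lineage 13 over Pop unless another pair is named.

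The 3 lineage 13 libraries held 33.9 to 35.4 M summed counts and the 3 Pop libraries 33.2 to 34.8 M. Replicate 3 of lineage 13 stood apart from replicates 1 and 2, with a chi-square per gene of 27.1 and 28.1 against 8.62 between the other two. Pop replicate 1 stood apart further, at 55.0 and 75.4 against 6.49 between Pop replicates 2 and 3. Across genes, which are not independent, log2 CPM of lineage 13 libraries had a mean correlation of 0.968 with lineage 10, 0.941 with lineage 03 and 0.943 with Pop. Markers of a mesenchymal breast cancer line were high in both groups: the summed level of VIM, CD44, AXL, CAV1, SPARC, ZEB1 and FN1 was 6343 to 6754 CPM in lineage 13 and 7168 to 8068 CPM in Pop. Within that list SPARC was near 0 in both groups, at 0.285 CPM in lineage 13 and 0.964 CPM in Pop. Leukocyte markers summed to 81.7 to 108 CPM in lineage 13 and 205 to 234 CPM in Pop, with CD3E at or near 0, and all 4 of the 7 that were tested were lower. All 3 tested endothelial markers of 6 were lower, and the list summed to 7.24 to 9.45 CPM in lineage 13 and 84.2 to 98.9 CPM in Pop, most of it from ESAM, an adhesion molecule, at 6.78 ± 1.07 CPM in lineage 13 and 81.1 ± 7.46 CPM in Pop. Their part in the results below was not tested. Luminal epithelial markers summed to 1265 to 1302 CPM in lineage 13 and 1705 to 2134 CPM in Pop, most of it from KRT8, KRT18 and KRT19. PGR, ESR1 and FOXA1 were at or near 0 in both groups. Of the 7 tested luminal markers of 10, 5 were lower and 2, ERBB2 and EPCAM, higher. Basal markers summed to 154 to 226 CPM in lineage 13 and 154 to 365 CPM in Pop, nearly all of it from EGFR. KRT5, KRT6A and KRT14 were at or near 0 in both groups. Fibroblast markers stayed at 5.87 to 6.93 CPM in lineage 13 and 9.04 to 10.6 CPM in Pop, and erythroid markers at 0.0291 to 0.0858 CPM in lineage 13 and 0.152 to 0.208 CPM in Pop.

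Lineage 13 differed from Pop at a large share of the transcriptome, and most differences of at least 2-fold were lower levels in lineage 13. Of the genes tested, 6466 were called (45.4%), with 2966 higher in lineage 13 (20.8%) and 3500 lower (24.6%). With a change of at least 2-fold, 326 were higher (2.29%) and 1284 lower (9.02%). The median called gene rose 1.41-fold or fell 1.62-fold. For 7207 genes (50.6%) the 3 lineage 13 libraries did not overlap the 3 Pop libraries, among them 2782 of the genes called higher and 3268 of those called lower. The median log2 fold change over all genes was -0.02. Under a test against a change of 1.5-fold, the calls were 382 higher and 1310 lower, so the higher genes made up 22.6% of the calls, against 45.9% under the test against no change. Tested directly against lineage 03, lineage 13 had 3822 genes higher (26.8%) and 3776 lower (26.5%), and against lineage 10 it had 2560 higher (18%) and 2400 lower (16.9%).

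**Figure D1:**
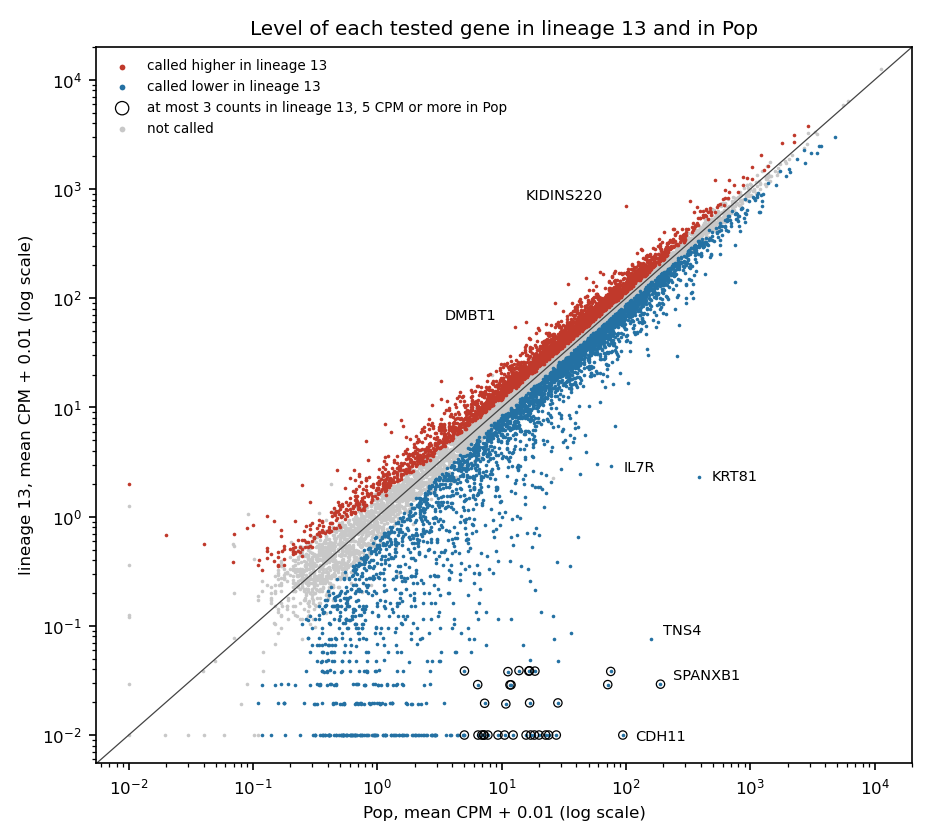
Mean CPM of each of the 14241 tested genes in lineage 13 (vertical axis) against Pop (horizontal axis), both on log scales after adding 0.01 CPM, with called genes in red (higher in lineage 13) and blue (lower) and uncalled genes in grey. The circled genes along the bottom are the 33 at no more than 3 counts in lineage 13 and at least 5 CPM in Pop, and no gene met the same limits with the groups exchanged.

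Among called genes of at least 5 CPM in lineage 13 the largest rise was that of KIDINS220, a transmembrane scaffold protein that takes part in neurotrophin receptor signalling. KIDINS220 (GRCh38 chr2:8721081-8837630) was at 750.2, 725 and 634 CPM in lineage 13, against 96.3, 101 and 101 CPM in Pop. Every lineage 13 library stood far above every Pop library, and the gene was 7.08-fold higher (log2 fold change 2.82 ± 0.08, edgeR adjusted p = 3.9e-11). It was also at 92.6 ± 1.99 CPM in lineage 03 and 125 ± 4.44 CPM in lineage 10, so that only lineage 13 of the 4 groups was at this level, with log2 fold changes of 2.92 over lineage 03 and 2.50 over lineage 10. The tested genes on both sides had no rise of this size. MBOAT2, its tested neighbour on one side, was at 29.4 CPM in lineage 13 and 31.6 CPM in Pop and was not called, and ID2, on the other, fell by 1.59 on the log2 scale. Of the next tested genes beyond ID2, RNF144A fell by 2.71, RSAD2 by 2.03 and CMPK2 by 2.29, while ASAP2, ITGB1BP1, CPSF3, IAH1, ADAM17, YWHAQ and TAF1B on the side of MBOAT2 rose by log2 fold changes of 0.27 to 0.66. RSAD2 and CMPK2 are neighbouring interferon-stimulated genes whose annotated spans overlap, so reads could be split between them.

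**Figure D2:**
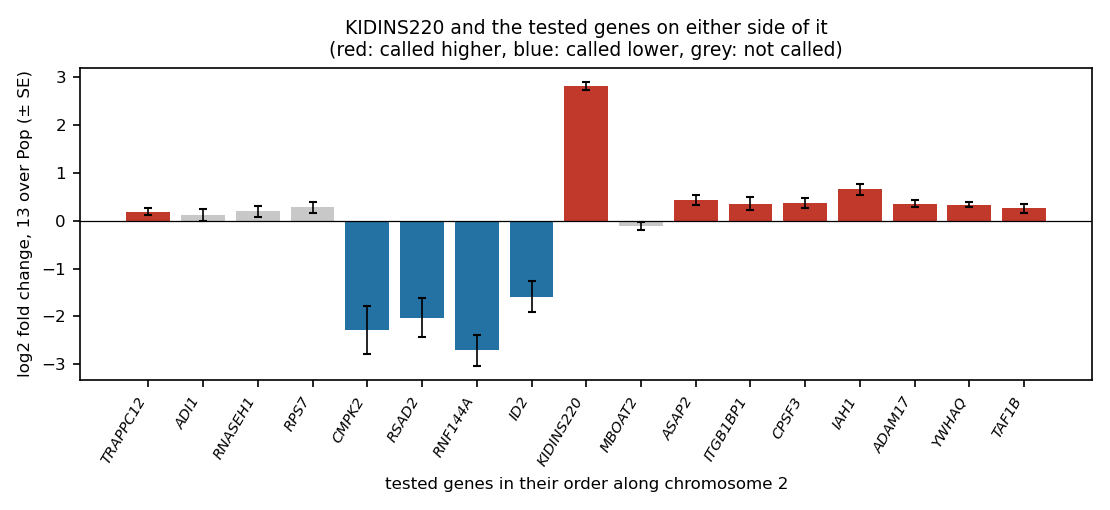
Log2 fold change of lineage 13 over Pop, with SE, for KIDINS220 and the 8 tested genes on each side in chromosome order. KIDINS220 stands at 2.82 while all its drawn neighbours lie between -2.71 and 0.66.

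All 12 of the largest rises at that level were also called higher in lineage 13 than in lineages 03 and 10. NCAM2, a neural cell adhesion molecule (chr21:20998315-21543329), was at 7.88, 6.2 and 7.04 CPM in lineage 13, against 1.19, 0.996 and 1.22 CPM in Pop, 6.19-fold higher (log2 fold change 2.63 ± 0.20, edgeR adjusted p = 2.5e-07). PSD4, an exchange factor for the small GTPase ARF6 (chr2:113157325-113209396), was at 17.8, 17.7 and 16.5 CPM in lineage 13, against 3.13, 3.13 and 3.48 CPM in Pop, 5.33-fold higher (log2 fold change 2.41 ± 0.12, edgeR adjusted p = 4.5e-09). In both genes the lineage 13 libraries lay clear of all Pop libraries. DEF6, an exchange factor for small GTPases known from lymphocytes (chr6:35297852-35321771), had 58.7, 62.4 and 59.9 CPM in lineage 13, against 17.9, 15.2 and 14.1 CPM in Pop, and DMBT1, a secreted scavenger receptor of mucosal surfaces (chr10:122560665-122643736), had 49.6, 61.2 and 53.8 CPM in lineage 13, against 12.8, 15.1 and 10.9 CPM in Pop. DEF6 was 3.83-fold higher (log2 fold change 1.94 ± 0.14, edgeR adjusted p = 1.5e-07) and DMBT1 4.25-fold higher (log2 fold change 2.09 ± 0.25, edgeR adjusted p = 1.6e-05). All lineage 13 libraries of both genes were above all Pop libraries.

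Receptors were among the remaining large rises. VIPR1, a receptor for vasoactive intestinal peptide, was at 97.6, 92.6 and 81.5 CPM in lineage 13, against 25.4, 29 and 25.7 CPM in Pop, and rose 3.39-fold. EDNRB, the endothelin receptor type B, was at 11.6, 14.3 and 9.67 CPM in lineage 13, against 3.5, 2.72 and 3.54 CPM in Pop, and rose 3.64-fold. LRRC15, a membrane protein known from cancer-associated fibroblasts, was at 8.23, 6.5 and 5.44 CPM in lineage 13, against 1.34, 1.61 and 1.87 CPM in Pop, and rose 4.17-fold. No lineage 13 library of these 3 genes fell into the range of Pop. THSD1, a membrane protein with a thrombospondin type 1 domain, rose 4.69-fold to 5.97 ± 0.311 CPM in lineage 13, against 1.27 ± 0.274 CPM in Pop, and was at 0.155 CPM in lineage 03. The zinc finger pseudogene ZNF204P rose 5.01-fold, and the uncharacterized locus LOC344887 rose 3.8-fold. HHIP, which binds hedgehog ligands and damps that pathway, completed the genes with the largest lead over every other group, at 18, 18.7 and 10.8 CPM in lineage 13, against 5.84, 6.68 and 6.4 CPM in Pop, where replicate 3 of lineage 13 was the lowest of its group but still above Pop.

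At the other end, 33 genes (0.232%) that Pop expressed at 5 CPM or more had no more than 3 counts over all 3 lineage 13 libraries, and 17 of them had none. With the groups exchanged, no gene was at 5 CPM or more in lineage 13 with no more than 3 counts in Pop, and 2 were at 1 CPM or more, C4B and HIST2H4A, both from families with near-identical copies. The same count against Pop was 29 genes for lineage 03 and 28 for lineage 10, which are compared with the same Pop libraries. For genes with no counts the fold is a lower bound, set at 3 counts over the group, or 0.0285 CPM in lineage 13. For genes with 1 to 3 counts the ratio is given with a counting interval, which covers counting error only since the PCR copies of a molecule were not marked. A further 11 genes had 4 to 10 counts in lineage 13, among them the protease gene MMP1 and the transcription factor gene SOX4, and 4 had no more than 3 counts there but only 4 to 5 CPM in Pop, namely DSC2, F13A1, FAM155A and RARRES2.

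CDH11, a cadherin of mesenchymal and bone cells (chr16:64943753-65126112), was at 0, 0 and 0 CPM in lineage 13, against 74.2, 97.2 and 112 CPM in Pop. It was at least 3317-fold lower than in Pop, and lineages 03 and 10 held 4 and 0 counts of it. SPANXB1, a cancer-testis gene of sperm nuclei (chrX:141002591-141003706), had 0.0291, 0 and 0.0286 CPM in lineage 13, against 232, 172 and 165 CPM in Pop, a ratio of Pop to lineage 13 of 9964 with a 95% counting interval of 2758 to 82283; near-identical SPANX copies make its exact level uncertain. ATP10A, a phospholipid-transporting ATPase (chr15:25677273-25865172), was at 0, 0 and 0 CPM in lineage 13, against 22.4, 28.2 and 32 CPM in Pop, at least 967-fold lower. AGR2, a protein disulfide isomerase family member of secretory epithelia (chr7:16791811-16833433), was at 0, 0 and 0 CPM in lineage 13, against 19.6, 13.3 and 14.3 CPM in Pop, at least 550.3-fold lower. ATP10A and AGR2 also had 0 counts in every library of lineages 03 and 10, so Pop was the one group of the 4 with these transcripts. For 10 of the 33 genes the counts were no more than 3 in lineages 03 and 10 as well. Taken singly, 13 of the 33 were at or under that limit in lineage 03 and 18 in lineage 10. Of the 12 largest falls from 5 CPM or more in Pop, 3 were also called lower in lineage 13 than in lineages 03 and 10. MUC5AC, a gel-forming mucin, was at 0, 0 and 0 CPM in lineage 13, against 7.33, 14.3 and 15.5 CPM in Pop, at least 436-fold lower, with Pop replicate 1 the lowest of its group. ADAMTS1, a matrix metalloprotease, was at least 704-fold lower, the leukocyte receptor gene SLAMF7 at least 792-fold lower, the BMP antagonist gene CHRDL1 at least 600.2-fold lower and the carboxypeptidase gene CPVL at least 643-fold lower. CPVL was not low in every lineage, since lineage 10 had 12.4 ± 0.682 CPM. In lineages 03 and 10 ADAMTS1 had 0 and 2 counts and CHRDL1 25 and 0.

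Further genes of the 33 differ in what they encode. ITGB2, the beta chain of leukocyte integrins, had a ratio of Pop to lineage 13 of 651 with a 95% counting interval of 222 to 3159. SERPINB2, an inhibitor of plasminogen activators, had a ratio of Pop to lineage 13 of 588 with a 95% counting interval of 201 to 2854. The chemokine receptor gene CXCR4 had a ratio of Pop to lineage 13 of 337 with a 95% counting interval of 92.8 to 2785. The guidance receptor gene ROBO1 was at least 227-fold lower. TSPAN8, a tetraspanin, was at least 272-fold lower. Lineages 03 and 10 held 2 and 2 counts of ROBO1 and 0 and 0 of TSPAN8. Further members were PCDH7, TNS1, MAL2, PPP2R2C, SNTB1, KIF16B, GLB1L2, ZNF704, DTNA, HCLS1, AFF3, LINC01234, PKIA, KYNU and FAM133A. By chromosome, 5 of the 33 lay on chromosome 8, 4 each on 2 and 7, and 3 each on 4 and X. Just outside the limit, TNS4, a focal adhesion protein, had 7 counts in lineage 13 and 158 CPM in Pop.

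Of the 33 genes, 4 were silent in lineage 13 alone, with 5 CPM or more in each other group, and 3 of them are described. CREB5, a transcription factor of the CREB family (chr7:28299321-28825894), was at 0, 0 and 0 CPM in lineage 13, against 8.58, 11.1 and 12 CPM in Pop, at least 371-fold lower, and at 11.7 ± 2.3 CPM in lineage 03 and 6.17 ± 0.387 CPM in lineage 10. TENM3, a teneurin that joins neurons (chr4:182143987-182803024), was at 0.0291, 0.0278 and 0 CPM in lineage 13, against 46.5, 85.2 and 82.4 CPM in Pop, a ratio of Pop to lineage 13 of 3772 with a 95% counting interval of 1044 to 31152, and at 33.5 ± 2.01 CPM in lineage 03 and 17.7 ± 1.23 CPM in lineage 10. The fatty acid carrier gene FABP5 (chr8:81280363-81284777) was at 0.0291, 0.0556 and 0 CPM in lineage 13, against 93.6, 68.4 and 64.3 CPM in Pop, a ratio of Pop to lineage 13 of 2642 with a 95% counting interval of 904 to 12816, and at 32.8 ± 4.44 CPM in lineage 03 and 42.6 ± 2.5 CPM in lineage 10. For these genes, no library of another group came near the lineage 13 values.

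Across all genes, 856 (6.01%) were called higher and 950 (6.67%) lower in lineage 13 than in each of Pop, lineage 03 and lineage 10. Beside the silent genes, those furthest below every other group were UCA1, SLCO1B3, EMB and IL7R. UCA1, a long noncoding RNA, was at 0.0291, 0.0556 and 0.0286 CPM in lineage 13, against 36.9, 23.9 and 24 CPM in Pop, 677-fold lower (log2 fold change -9.40 ± 0.36, edgeR adjusted p = 4.8e-10). SLCO1B3, an organic anion transporter known from liver, was at 0.0291, 0.0834 and 0.0858 CPM in lineage 13, against 26.5, 24.7 and 27.4 CPM in Pop, 373-fold lower (log2 fold change -8.54 ± 0.22, edgeR adjusted p = 3.9e-11). UCA1 had 4 counts over lineage 13 and SLCO1B3 7. EMB, the immunoglobulin family protein embigin that accompanies monocarboxylate transporters, was at 0.116, 0.0278 and 0.229 CPM in lineage 13, against 5.39, 6.01 and 7.17 CPM in Pop, 48.7-fold lower (log2 fold change -5.60 ± 0.34, edgeR adjusted p = 4.3e-08). IL7R, the interleukin 7 receptor chain (chr5:35852695-35879603), was at 2.67, 2.97 and 3.03 CPM in lineage 13, against 75.1, 78.5 and 73.5 CPM in Pop, 26.1-fold lower (log2 fold change -4.71 ± 0.16, edgeR adjusted p = 1.6e-10), with 106 ± 24.6 CPM in lineage 03 and 65 ± 5.68 CPM in lineage 10. In each of these genes all lineage 13 libraries were below all Pop libraries.

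**Figure D3:**
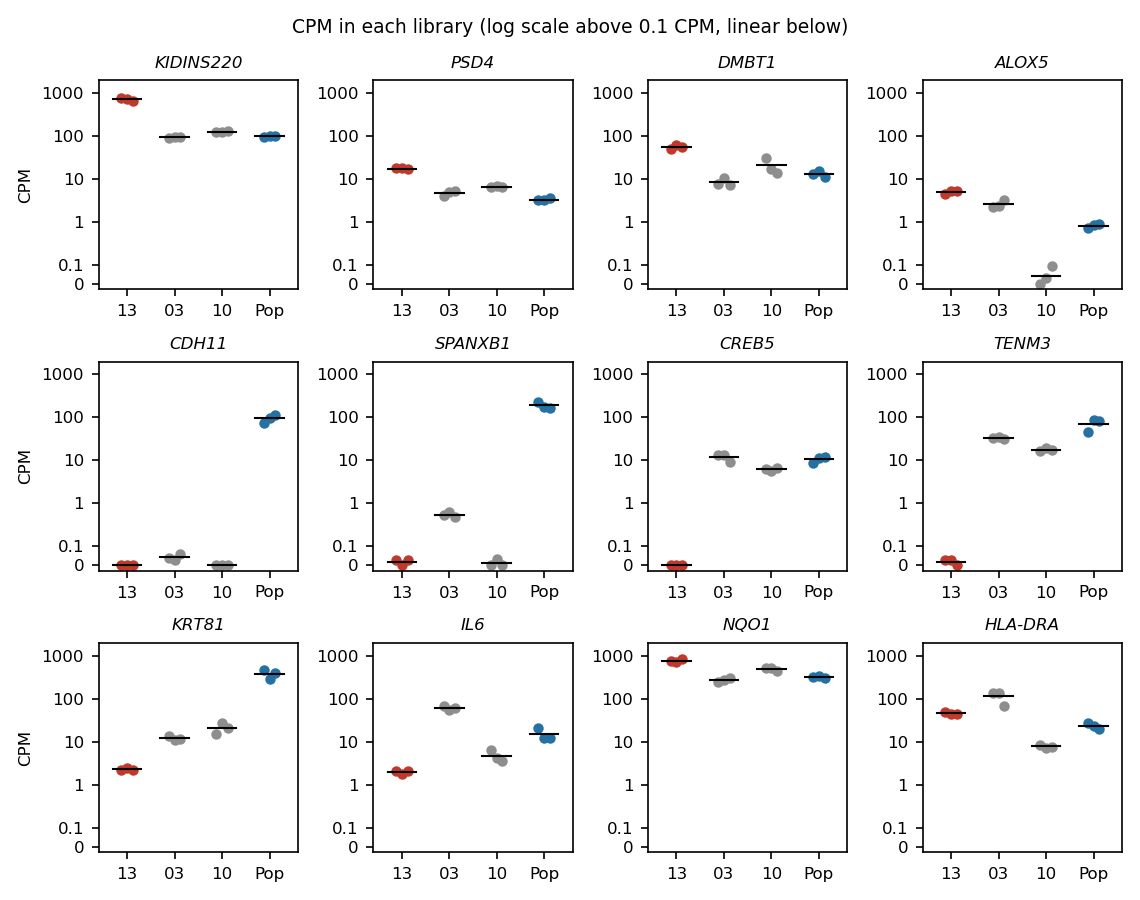
CPM of 12 genes in each library of lineage 13, lineage 03, lineage 10 and Pop, on an axis that is logarithmic above 0.1 CPM and linear below, with bars at group means. KIDINS220, PSD4 and DMBT1 are highest in lineage 13, CREB5 and TENM3 are at or near 0 there alone, and CDH11 and SPANXB1 are low in lineages 13, 03 and 10 alike.

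Promoter windows of these genes are shown because the contrast between a silent and an expressed gene is often discussed in terms of CG pairs, the sites of DNA methylation in vertebrates; no methylation was measured here. The windows run from 250 bases before to 50 after a start of the gene in RefSeq on GRCh38.p14, 5′ to 3′, with CG pairs in capitals. Where a gene had several windows, the one with the highest ratio of observed to expected CG pairs was used. The AGR2 and ATP10A windows lie inside the gene spans given above, which come from GENCODE. ATP10A (chr15:25863278-25863577, minus strand) and AGR2 (chr7:16804950-16805249, minus strand) were expressed in Pop alone, TENM3 (chr4:182143713-182144012, plus strand) was silent in lineage 13 alone, and KIDINS220 (chr2:8837564-8837863, minus strand) had the largest rise at 5 CPM or more.
ATP10A: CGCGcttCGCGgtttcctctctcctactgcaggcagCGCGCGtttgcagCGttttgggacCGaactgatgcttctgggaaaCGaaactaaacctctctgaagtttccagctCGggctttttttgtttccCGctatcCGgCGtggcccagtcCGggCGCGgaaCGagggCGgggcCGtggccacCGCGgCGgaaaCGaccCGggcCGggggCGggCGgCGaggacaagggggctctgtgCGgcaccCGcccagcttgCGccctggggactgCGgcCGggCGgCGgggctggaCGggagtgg
AGR2: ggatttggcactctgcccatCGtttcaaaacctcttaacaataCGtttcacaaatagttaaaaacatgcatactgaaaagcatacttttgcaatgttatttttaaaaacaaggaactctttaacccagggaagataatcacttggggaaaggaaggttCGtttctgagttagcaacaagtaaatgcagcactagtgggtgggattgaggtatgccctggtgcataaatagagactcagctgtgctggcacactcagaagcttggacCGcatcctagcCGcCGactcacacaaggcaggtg
TENM3: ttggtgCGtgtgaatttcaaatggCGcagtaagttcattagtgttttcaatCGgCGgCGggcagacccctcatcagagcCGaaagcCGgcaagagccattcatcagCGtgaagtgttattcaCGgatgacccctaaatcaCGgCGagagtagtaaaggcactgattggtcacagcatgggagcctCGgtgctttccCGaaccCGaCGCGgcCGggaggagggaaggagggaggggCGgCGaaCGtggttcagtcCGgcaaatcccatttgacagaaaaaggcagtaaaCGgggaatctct
KIDINS220: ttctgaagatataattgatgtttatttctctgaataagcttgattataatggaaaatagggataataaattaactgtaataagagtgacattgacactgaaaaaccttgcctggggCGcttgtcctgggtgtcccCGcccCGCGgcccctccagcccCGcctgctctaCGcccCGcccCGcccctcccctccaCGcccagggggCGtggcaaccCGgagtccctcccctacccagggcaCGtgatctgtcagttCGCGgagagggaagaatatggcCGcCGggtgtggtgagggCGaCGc
The ATP10A window held 37 CG pairs and an observed-to-expected ratio of 1.05, the AGR2 window 6 CG pairs and an observed-to-expected ratio of 0.42, the TENM3 window 22 CG pairs and an observed-to-expected ratio of 0.996, and the KIDINS220 window 18 CG pairs and an observed-to-expected ratio of 0.741. Among the 10470 tested genes with a window the median was 28 CG pairs, and 85.9% of windows had a ratio of at least 0.6. For 21 of the 33 near-silent genes a window was found, with a median of 10 CG pairs and 11 of 21 at a ratio of at least 0.6 (52.4%). For 9 of the 12 largest rises the median was 17 CG pairs and 55.6% reached that ratio. These counts describe the letters in the windows, and the start sites used in these cells were not measured.

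Of 47 gene lists, 36 had a larger share of tested members called lower than the 24.6% of all genes, and 9 had a larger share called higher than the 20.8% of all genes. At least 50% of the tested members were lower in 21 lists and higher in 2. The 21 include the cancer-testis antigens, whose share is not read as a result. Other lists also hold members with no counts in lineage 13, which passed the filter through other groups alone, such as 3 guidance genes and 3 metastasis genes. Some genes stand in more than 1 list, so the lists are not independent, and these tallies were not tested. The counts of single lists below are to be read beside the same 24.6% lower and 20.8% higher.

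**Figure D4:**
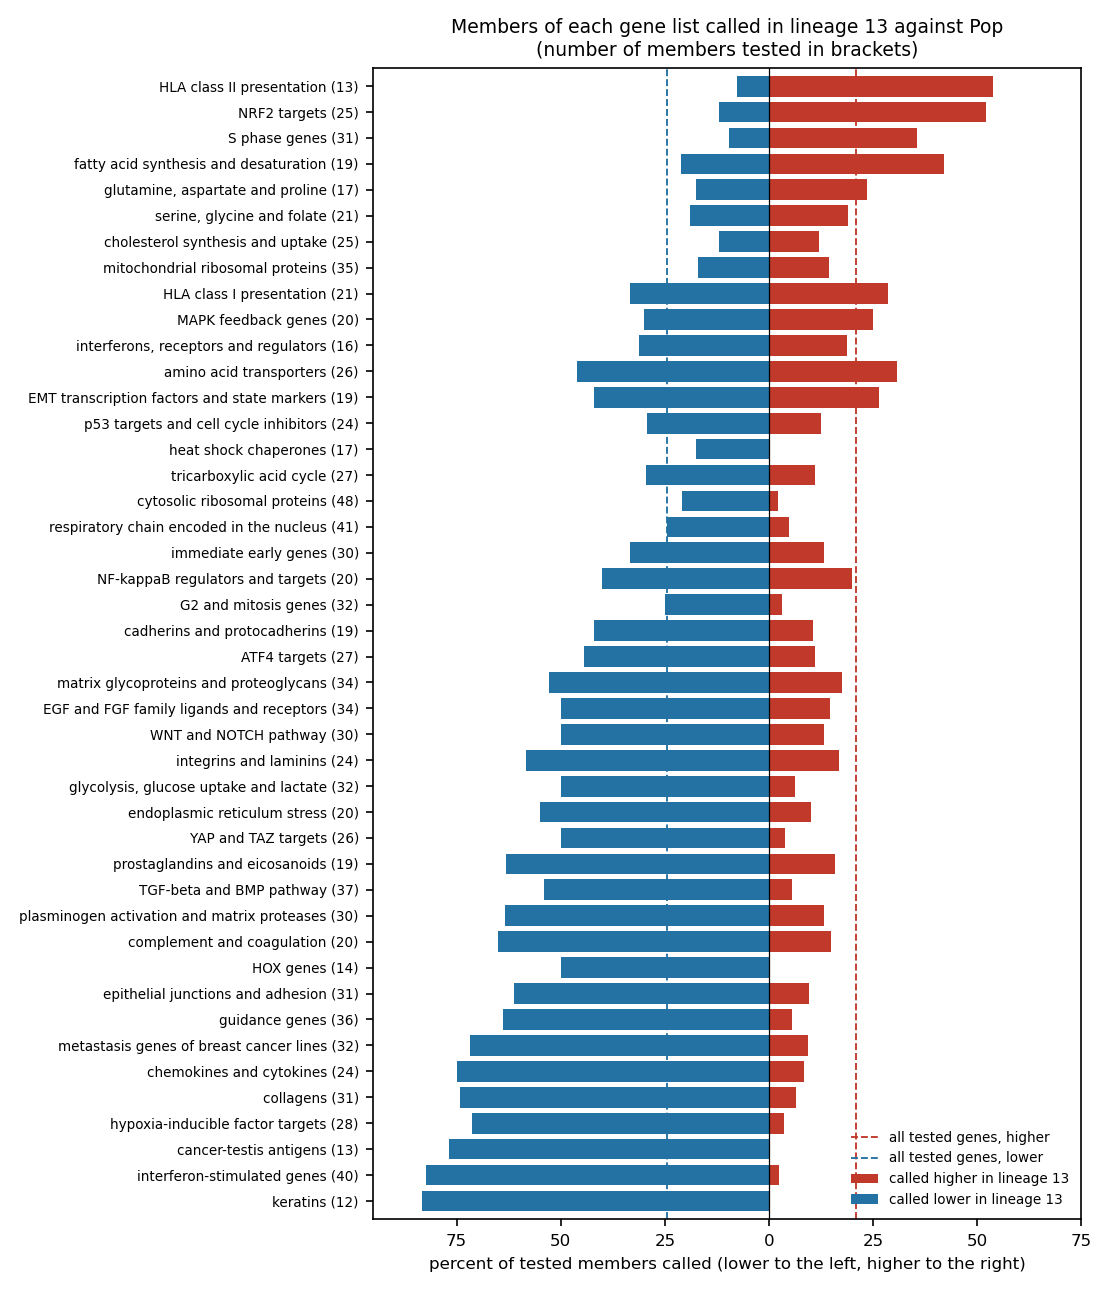
Percent of tested members called higher (right, red) or lower (left, blue) in lineage 13 than in Pop for the 44 lists with at least 12 tested members, with dashed lines at the shares of all tested genes, 20.8% and 24.6%. Keratins (83.3%) and interferon-stimulated genes (82.5%) reach furthest to the left, and NRF2 targets and HLA class II genes furthest to the right. The bar of cancer-testis antigens (76.9% of the 13 that passed the filter) is not read as a result. Of those 13, 6 had no counts in lineage 13 and passed the filter through other groups alone.

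Interferon-stimulated genes were broadly lower in lineage 13. Of the 40 tested, 33 were lower (82.5%) and 1 was higher (2.5%), with a median log2 fold change of -0.76. Of the 40, 12 were lower than in every other group, against 6.67% of all genes. ISG20, an exonuclease that degrades viral RNA, was at 2.18, 2.64 and 2.43 CPM in lineage 13, against 17.6, 14.5 and 14.4 CPM in Pop, 6.39-fold lower (log2 fold change -2.68 ± 0.27, edgeR adjusted p = 3.7e-06). OASL, a relative of the oligoadenylate synthetases, was at 14.1, 17.8 and 16.9 CPM in lineage 13, against 87.5, 72 and 78.5 CPM in Pop, 4.87-fold lower (log2 fold change -2.28 ± 0.25, edgeR adjusted p = 7.2e-06). DDX60, a helicase that helps RNA sensing, was at 26.9, 32 and 24.3 CPM in lineage 13, against 84, 79.4 and 88.7 CPM in Pop, 3.03-fold lower (log2 fold change -1.60 ± 0.17, edgeR adjusted p = 5.5e-06). All lineage 13 libraries of these genes were below all Pop libraries. The virion-tethering protein gene BST2 fell 2.14-fold. Against lineage 03, 34 members were lower and 0 higher, and against lineage 10, 13 were lower and 2 higher. Over all genes, 26.5% were lower and 26.8% higher than in lineage 03, and 16.9% lower and 18% higher than in lineage 10. Near-identical IFITM copies and the overlap of RSAD2 with CMPK2 leave the single values of these members uncertain.

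Of 16 tested interferon ligands, receptors and regulators 3 were higher (18.8%) and 5 lower (31.2%), against 20.8% and 24.6% of all genes. IFNGR2, a chain of the interferon gamma receptor, was at 118, 119.5 and 118 CPM in lineage 13, against 52.5, 48.1 and 50.9 CPM in Pop, 2.35-fold higher (log2 fold change 1.23 ± 0.07, edgeR adjusted p = 2.7e-08). IFNAR2 rose 2.16-fold and IFNAR1 1.64-fold, both chains of the type I interferon receptor. The 3 higher genes all lie on chromosome 21, where 42.6% of all tested genes were higher. IFNGR2 was at 146 ± 8.79 CPM in lineage 03 and 79.7 ± 5.16 CPM in lineage 10, and lineage 13 was called lower than lineage 03 and higher than lineage 10. IRF1, a transcription factor induced by interferon, fell 2.07-fold, and TMEM173, which encodes STING, the adaptor of DNA sensing, fell 2.36-fold.

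Antigen presentation genes did not follow one direction. In the class I list 6 of 21 tested genes were higher (28.6%) and 7 lower (33.3%), against 20.8% and 24.6% of all genes. The median log2 fold change of the list was -0.09. TAPBPL, which edits peptides on class I molecules, fell 2.67-fold, the proteasome activator genes PSME2 and PSME1 fell 2.22-fold and 1.81-fold, and the trimming peptidase gene ERAP2 fell 1.81-fold. Class II genes were more often higher, 7 of 13 with 1 lower and a median of 0.65. HLA-DRA, the alpha chain of the DR molecules, was at 48.2, 44.4 and 45.1 CPM in lineage 13, against 27.4, 23.3 and 19.9 CPM in Pop, 1.95-fold higher (log2 fold change 0.96 ± 0.21, edgeR adjusted p = 0.002). The lineage 13 libraries were all above those of Pop, but lineage 03 was higher, at 116 CPM, and lineage 10 lower, at 7.76 CPM. HLA-DPB1 rose 2.62-fold (adjusted p = 0.00051 by edgeR) and HLA-DRB1 1.8-fold, the second uncertain for its near-identical DRB copies. CTSS, a protease that cleaves the invariant chain, was the lower member and fell 3.44-fold. The class II regulator CIITA had a log2 fold change of 0.33 and was not called.

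Secreted inflammatory signals were lower in lineage 13. Among 24 tested chemokines and cytokines 18 were lower and 2 higher, with a median log2 fold change of -1.53. IL11, a cytokine of the interleukin 6 family tied to bone metastasis, was at 10.4, 10.6 and 12.8 CPM in lineage 13, against 65.6, 58.8 and 61.2 CPM in Pop, 5.48-fold lower (log2 fold change -2.46 ± 0.17, edgeR adjusted p = 1.4e-07). IL6 was at 2.06, 1.78 and 2.09 CPM in lineage 13, against 21.1, 12.4 and 11.9 CPM in Pop, 7.65-fold lower (log2 fold change -2.94 ± 0.26, edgeR adjusted p = 1.1e-06), without overlap. CXCL16, a membrane-bound chemokine, fell 7.91-fold and TNFSF15, a ligand of the tumor necrosis factor family, 6.4-fold. The higher members were IL32 and LIF, with log2 fold changes of 0.61 and 0.34, and neither was called without Pop replicate 2.

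Lipid mediator genes split by enzyme. Of 19 tested genes for prostaglandins and eicosanoids, 12 were lower and 3 higher, with a median of -1.62, and 1 was higher without Pop replicate 3. PTGES, which makes prostaglandin E2, was at 1.66, 3.64 and 1.97 CPM in lineage 13, against 52, 33.3 and 41.8 CPM in Pop, 17.4-fold lower (log2 fold change -4.12 ± 0.32, edgeR adjusted p = 3.1e-07). PTGS1, the constitutive cyclooxygenase, fell 19.5-fold, and PTGS2, the inducible one, had no counts in lineage 13 and 2.84 ± 0.21 CPM in Pop, at least 99.8-fold lower. ALOX5, the lipoxygenase that starts leukotriene synthesis, was higher, at 4.33, 5.09 and 5.29 CPM in lineage 13, against 0.70, 0.85 and 0.863 CPM in Pop, 6.07-fold higher (log2 fold change 2.6 ± 0.23, edgeR adjusted p = 1.1e-06). All lineage 13 libraries were above Pop, and ALOX5 averaged 2.57 ± 0.483 CPM in lineage 03 and 0.041 ± 0.0474 CPM in lineage 10. TBXAS1, which makes thromboxane, fell 3.08-fold.

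Complement and coagulation genes were lower in 13 of 20 cases and higher in 3, with a median of -0.81. F2RL1, a receptor cleaved by proteases, was at 95.3, 99.2 and 106 CPM in lineage 13, against 364, 358 and 316 CPM in Pop, 3.45-fold lower (log2 fold change -1.79 ± 0.08, edgeR adjusted p = 2.9e-09). CD55, a brake on complement, fell 2.7-fold and the tissue factor gene F3 2.46-fold. Among 30 tested plasminogen activation and matrix protease genes 19 were lower and 4 higher, with a median of -0.53, and 2 were higher without Pop replicate 2. MMP1, the interstitial collagenase, was at 0, 0 and 0.229 CPM in lineage 13, against 44.8, 33.7 and 29.5 CPM in Pop. Its 8 counts in lineage 13 all came from replicate 3, so no fold is given, and it was called lower (edgeR adjusted p = 1.6e-08). MMP16, a membrane-type matrix metalloprotease, fell 15.8-fold. SERPINB2 and ADAMTS1, described above, belong to the same list.

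Genes of the extracellular matrix were mostly lower. Of 31 tested collagens and collagen-modifying genes 23 were lower (74.2%) and 2 higher (6.45%), with a median log2 fold change of -0.69. Of the 31, 11 were lower in lineage 13 than in every other group, against 6.67% of all genes. COL4A5, a basement membrane collagen chain, was at 0.116, 0.111 and 0.114 CPM in lineage 13, against 22.4, 27.2 and 28.4 CPM in Pop, 221-fold lower (log2 fold change -7.79 ± 0.22, edgeR adjusted p = 3.9e-11). COL6A2, a chain of microfibrillar collagen, was at 15.3, 14.3 and 16.3 CPM in lineage 13, against 64.7, 66.6 and 70.4 CPM in Pop, 4.4-fold lower (log2 fold change -2.14 ± 0.08, edgeR adjusted p = 4e-10). No lineage 13 library of either gene reached the range of Pop. COL4A6, which lies head to head with COL4A5, had a ratio of Pop to lineage 13 of 92.8 with a 95% counting interval of 31.4 to 453. PLOD2, which hydroxylates collagen lysines, fell 3.11-fold. The higher members were COL4A4 and COL5A2, at log2 fold changes of 1.30 and 0.63.

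Among matrix glycoproteins and proteoglycans 18 of 34 were lower and 6 higher, with a median of -0.53. NOV, a matricellular protein of the CCN family, fell 111-fold, the heparan sulfate proteoglycan genes GPC6 and SDC2 fell 24.2-fold and 10.2-fold, and SRGN, a secretory granule proteoglycan, 4.3-fold. Integrins and laminins were lower in 14 of 24 cases and higher in 4, with a median of -0.55, but only 1 was higher without lineage 13 replicate 2. LAMA4, a laminin chain of vessel basement membranes, fell 10.4-fold. ITGA3, a laminin-binding integrin chain, rose instead, at 2105, 2016 and 1978 CPM in lineage 13, against 1148, 1225 and 1262 CPM in Pop, 1.68-fold higher (log2 fold change 0.75 ± 0.07, edgeR adjusted p = 2.3e-06). Its 3 lineage 13 libraries were all above Pop and above lineages 03 and 10, which averaged 1604 ± 74.4 CPM in lineage 03 and 1382 ± 14.4 CPM in lineage 10.

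No keratin was higher in lineage 13, and 10 of 12 tested were lower, with a median log2 fold change of -0.79. KRT81, a hair keratin known from breast cancer lines, was at 2.15, 2.5 and 2.2 CPM in lineage 13, against 479.6, 292 and 391 CPM in Pop, 169-fold lower (log2 fold change -7.40 ± 0.27, edgeR adjusted p = 2.5e-10). KRT7, a keratin of simple epithelia, was at 134, 153 and 135 CPM in lineage 13, against 866, 644 and 741 CPM in Pop, 5.34-fold lower (log2 fold change -2.42 ± 0.13, edgeR adjusted p = 1.2e-08). The groups did not overlap in either gene. KRT17, a basal keratin, fell 32.6-fold, and KRT86, whose annotated span overlaps that of KRT81 so that reads may be shared, 23.9-fold. Junction genes were lower in 19 of 31 cases and higher in 3, with a median of -0.82, and 1 was higher without lineage 13 replicate 3. The desmosomal cadherin gene DSC2 had no counts in lineage 13 and 4.38 ± 0.576 CPM in Pop, at least 154-fold lower. The tight junction genes CLDN1 and OCLN fell 6.76-fold and 3.32-fold. LSR, which builds tricellular junctions, was higher, at 58 ± 1.11 CPM in lineage 13 and 27.2 ± 2.42 CPM in Pop, 2.13-fold higher (log2 fold change 1.09 ± 0.08, edgeR adjusted p = 1.5e-07).

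Markers of epithelial and mesenchymal state fell on both sides. Of 19 tested, 8 were lower (42.1%) and 5 higher (26.3%), against 24.6% and 20.8% of all genes, with a median of -0.22. Besides CDH11, the lower ones included CD24, a surface glycoprotein low in mesenchymal breast cells, 87-fold lower, ELF3, an epithelial transcription factor, 31.1-fold lower, and CDH1, E-cadherin, with a ratio of Pop to lineage 13 of 74.3 with a 95% counting interval of 20.2 to 619.7. VIM, the mesenchymal intermediate filament, was at 2425, 2465 and 2549 CPM in lineage 13, against 3593, 3838 and 3646 CPM in Pop, 1.49-fold lower (log2 fold change -0.57 ± 0.08, edgeR adjusted p = 0.0001). SNAI2, ZEB1 and ZEB2, transcription repressors of the epithelial program, were higher, with log2 fold changes of 0.36, 0.23 and 0.32, and so were ESRP2, a splicing factor of epithelial cells, at 17.4 CPM in lineage 13 and 8.5 CPM in Pop, and the epithelial adhesion gene EPCAM, at 16.4 CPM in lineage 13 and 12.4 CPM in Pop. Without lineage 13 replicate 1, or without Pop replicate 3, the higher members numbered 2.

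Genes tied to metastasis of breast cancer lines, promoters and suppressors alike, were lower in 23 of 32 cases and higher in 3, with a median of -1.19. CST1, a secreted cystatin, fell 26-fold, while CXCR4, MMP1 and ADAMTS1 of this list have their values above. Of 38 cancer-testis antigens 13 were tested, and 6 of these had no counts in lineage 13, so that they passed the filter through other groups alone and the list is no count of all its members. Of the 13, 10 were lower, which is not read as a result for that reason. Beside SPANXB1 and FAM133A, they held SPANXC, with no counts in lineage 13 and 3.83 ± 1.93 CPM in Pop, and MAGEB2, with none in lineage 13 and 1.13 ± 0.283 CPM in Pop. SPANXC was at least 134-fold lower and MAGEB2 at least 39.8-fold lower.

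Guidance genes, which steer axons and also vessels and tumor cells, were lower in 23 of 36 cases and higher in 2, with a median of -0.65. NTN4, a secreted netrin of basement membranes, was at 3.05, 3.09 and 2.95 CPM in lineage 13, against 54.2, 61.2 and 60.5 CPM in Pop, 19.3-fold lower (log2 fold change -4.27 ± 0.14, edgeR adjusted p = 1e-10). SLIT2, the ligand of ROBO receptors, fell 7.27-fold, and the ephrin receptor gene EPHA4 4.74-fold. NTN4 libraries of lineage 13 were all far below those of Pop. The higher members were SEMA6B and PLXNB1, a semaphorin and a plexin, at log2 fold changes of 1.04 and 1.22.

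In the TGF-beta and BMP pathway 20 of 37 tested genes were lower and 2 higher, with a median of -0.52, and the higher ones numbered 1 without lineage 13 replicate 1 or 3 or Pop replicate 1 or 2. INHBB, an activin subunit, was at 0.0582, 0.0278 and 0.0286 CPM in lineage 13, against 11.5, 18 and 21.5 CPM in Pop, 408-fold lower (log2 fold change -8.67 ± 0.42, edgeR adjusted p = 4.5e-09), from 4 counts in lineage 13. BMPR1B, a BMP receptor, had a ratio of Pop to lineage 13 of 359 with a 95% counting interval of 64 to 14224. TGFBI, a matrix protein induced by TGF-beta, fell 4.29-fold, and FST, which binds activins, 4.48-fold. WNT and NOTCH genes were lower in 15 of 30 cases and higher in 4, with a median of -0.40. WNT7B, a ligand, fell 8.4-fold to 5.55 CPM in lineage 13, against 46.7 CPM in Pop, the NOTCH ligand gene JAG1 4.73-fold, and the WNT receptor gene FZD8 7.49-fold. For ligands and receptors of the EGF, FGF and related families the counts were 17 of 34 lower and 5 higher, with a median of -0.39. NRP2, a co-receptor of VEGF and semaphorins, fell 18-fold and NRG1, a ligand of ERBB receptors, 2.12-fold, while FGFR4 rose 2.75-fold.

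Hypoxia-inducible factor targets were lower in 20 of 28 cases and higher in 1, with a median of -0.54, and the higher one lost its call when any single library was left out. EGLN3, an oxygen-sensing hydroxylase, fell 7.04-fold, ANGPTL4, a secreted lipase inhibitor, 5.84-fold, and CA12, a carbonic anhydrase, 3.07-fold. CA9 and VEGFA, widely used markers of hypoxia, were not called, with log2 fold changes of -0.99 and 0.26. Of 32 tested genes of glycolysis, glucose uptake and lactate 16 were lower and 2 higher, with a median of -0.33. GAPDH was at 2824, 2946 and 3191 CPM in lineage 13, against 5115, 4846 and 4493 CPM in Pop, 1.61-fold lower (log2 fold change -0.69 ± 0.10, edgeR adjusted p = 6.7e-05). The aldolase gene ALDOC fell 3.1-fold and the enolase gene ENO2 1.6-fold, and the glucose transporter gene SLC2A6 rose 1.9-fold. Against lineages 03 and 10 the same list had 9 and 8 members higher and 6 and 6 lower. Over all genes, the shares in that order were 26.8% and 18% higher and 26.5% and 16.9% lower.

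NRF2 targets, which defend against oxidants, were the list with the largest count of higher members, 13 of 25, with 3 lower and a median of 0.30. NQO1, a quinone reductase, was at 769, 712 and 850.4 CPM in lineage 13, against 328, 349 and 305 CPM in Pop, 2.38-fold higher (log2 fold change 1.25 ± 0.10, edgeR adjusted p = 4.4e-07). All its lineage 13 libraries were above all Pop libraries. OSGIN1 rose 2.55-fold, the epoxide hydrolase gene EPHX1 1.89-fold and the pentose phosphate enzyme gene TALDO1 1.8-fold. The aldo-keto reductase gene AKR1C1, which has near-identical neighbours, was lower with a log2 fold change of -3.02. HMOX1, GCLM and GCLC, the last pair being the subunits of the enzyme that starts glutathione synthesis, were not called, at -0.18, 0.27 and 0.27.

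Nutrient pathways moved gene by gene. Of 26 tested amino acid transporters 8 were higher (30.8%) and 12 lower (46.2%), against 20.8% and 24.6% of all genes. The median was -0.17. SLC38A4 and SLC38A2, sodium-coupled neutral amino acid transporters, had log2 fold changes of -1.62 and -1.15. SLC3A2, the shared heavy chain of several exchangers, had 0.62 and SLC43A1, a transporter of large neutral amino acids, 0.82. The exchanger genes SLC7A5 and SLC7A11, which work with SLC3A2, were higher too, at 0.84 and 1.03. In serine, glycine and folate metabolism 4 of 21 were higher and 4 lower, 19% each and below the shares of all genes. The median was -0.04, and 2 were higher without Pop replicate 2. PHGDH, the first enzyme of serine synthesis, was at 1.31, 1.33 and 1.57 CPM in lineage 13, against 7.55, 7.18 and 6.63 CPM in Pop, 5.06-fold lower (log2 fold change -2.34 ± 0.19, edgeR adjusted p = 6.3e-07), without overlap. Cholesterol genes were called in 3 of 25 cases higher and 3 lower, shares below those of all genes, with a median of 0.07. NSDHL, MVD and LSS, enzymes of its synthesis, had log2 fold changes of -1.04, 0.56 and 0.34. Fatty acid synthesis and desaturation had 8 of 19 higher (42.1%) and 4 lower (21.1%), with a median of 0.13. The higher genes of that list numbered 5 without replicate 1 of lineage 13 or of Pop. FADS3, of the desaturase family, and ACSS2, which activates acetate, were higher at 0.73 and 0.53, and the acyl-CoA synthetase genes ACSL5 and ACSL4 lower at -0.82 and -0.75.

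Genes of DNA replication were more often higher than lower. Of 31 tested S phase genes 11 were higher (35.5%) and 3 lower (9.68%) than in Pop, with a median of 0.13. Of the 31, 10 were higher than in each of Pop, 03 and 10, as were 6.01% of all genes. Against lineage 03 22 were higher and 0 lower, and against lineage 10 15 and 0. Over all genes, 26.8% were higher and 26.5% lower than in lineage 03, and 18% higher and 16.9% lower than in lineage 10. E2F2, a transcription factor of the cell cycle, was at 21.2, 24.3 and 21.9 CPM in lineage 13, against 11.1, 11.7 and 11.4 CPM in Pop, 1.97-fold higher (log2 fold change 0.98 ± 0.10, edgeR adjusted p = 4.2e-06). CHAF1B, a histone chaperone, GINS2, a part of the replicative helicase, and MCM6, another, rose 1.78-fold, 1.73-fold and 1.54-fold. Without Pop replicate 2 the higher S phase genes numbered 6, and the lower ones numbered 1 without any one lineage 13 library or without Pop replicate 1 and 5 without Pop replicate 3. Of 32 tested G2 and mitosis genes 8 were lower, a share close to the 24.6% of all genes, and 1 was higher, with a median of -0.19. KIF2C, a kinesin of the kinetochore, and CDC20, an activator of the anaphase-promoting complex, fell 1.6-fold and 1.51-fold. The lower count was 5 without lineage 13 replicate 3 or without Pop replicate 1, and 14 without Pop replicate 3, and the higher one was lost without lineage 13 replicate 2, Pop replicate 2 or Pop replicate 3.

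Counts in the housekeeping lists changed with single libraries. Their lower shares were 20.8% for cytosolic ribosomal proteins, 24.4% for the respiratory chain and 17.1% for mitochondrial ribosomal proteins, against 24.6% of all genes. The higher shares, 2.08%, 4.88% and 14.3% in that order, were below the 20.8% of all genes. Of 48 cytosolic ribosomal protein genes 1 was higher and 10 lower, with a median of -0.18, but 6 were higher without Pop replicate 1, 21 lower without Pop replicate 3 and 6 lower without lineage 13 replicate 1 or 2. RPL10, RPL8 and RPL30 had log2 fold changes of -0.99, -0.96 and -0.63. Replicate 3 of lineage 13 deviated from its group by 0.16 over this list on the log2 scale and Pop replicate 1 by 0.35. Of 41 nuclear-encoded respiratory chain genes 2 were higher and 10 lower, with a median of -0.14, and 10 were higher without Pop replicate 1. Of 35 mitochondrial ribosomal protein genes 5 were higher and 6 lower, with a median of -0.10, with 9 higher without Pop replicate 1, 3 higher without Pop replicate 2 or 3 or lineage 13 replicate 1 or 3, and 14 lower without Pop replicate 3.

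Along the genome, median log2 fold changes differed between chromosomes around the median of -0.02 over the 13753 tested genes with a chromosome. Higher medians were those of chromosomes 18 (0.34, with 54.3% of tested genes called higher), 6 (0.28, 44.3%), 2 (0.27, 47.8%) and 21 (0.25, 42.6%), the last holding NCAM2 and the 3 higher interferon receptor genes. Lower medians were those of X (-0.33, with 47.3% called lower), 12 (-0.31, 49.2%), 8 (-0.26, 42.8%), 5 (-0.25, 43.7%) and 14 (-0.21, 39.1%). Among protein-coding genes with a mean of at least 10 CPM over the libraries of the 4 groups, the median of X was -0.16. In that set chromosome 12 was at -0.28, 5 at -0.23, 8 at -0.21 and 14 at -0.15. Chromosome 8, with 463 of the tested genes, holds 5 of the 33 near-silent genes, and chromosome 2, with 916, holds 4. Against lineage 03 and lineage 10, the medians of chromosome 6 were 0.23 and 0.23, while those of chromosome 18 were 0.00 and -0.08. In the same order, chromosome 2 was at 0.23 and -0.02, and chromosome 21 at -0.002 and -0.05. Chromosome 12 was at 0.06 and -0.02, and chromosome 14 at -0.16 and -0.02. The median of X was -0.40 over lineage 03 and 0.16 over lineage 10. Chromosome 5 was low in all 3 comparisons, at -0.31 over lineage 03 and -0.42 over lineage 10, and so was chromosome 8, at -0.40 and -0.21. Lineage 13 libraries enter all 3 comparisons, and what sets these medians was not tested.

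**Figure D5:**
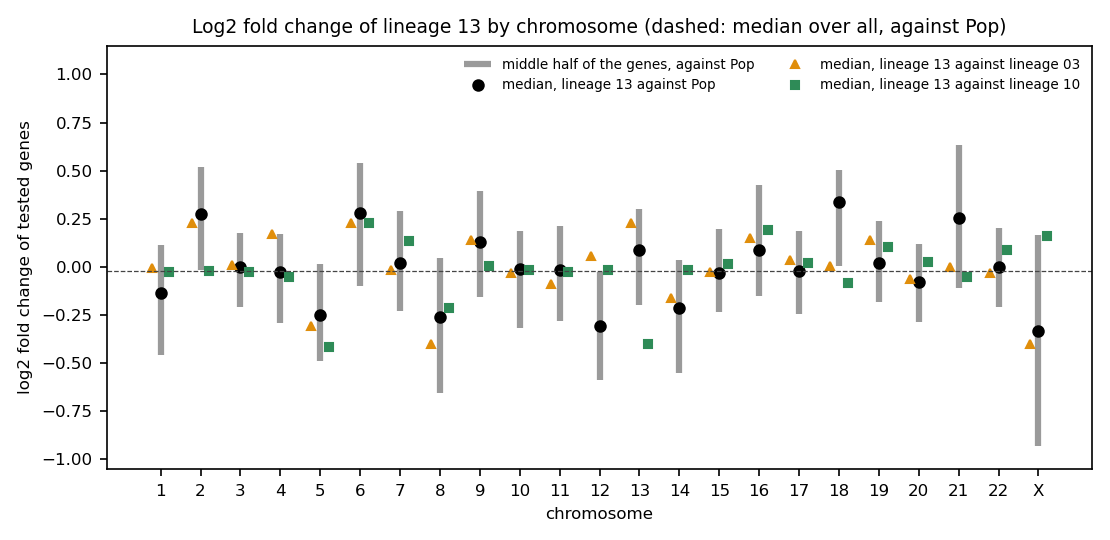
Median log2 fold change of lineage 13 over Pop per chromosome (black, with bars at the quartiles of genes), and the medians over lineage 03 (orange triangles) and lineage 10 (green squares). Chromosomes 18, 6, 2 and 21 stand above 0.2 over Pop, and X, 12, 8, 5 and 14 below -0.2.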

How the data were processed

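Cells in isolation were lysed in TRIzol, the RNA was purified on columns with DNase as an option, and 500 ng were made into stranded mRNA libraries read as paired 75 nt reads, per the labels' protocols. STAR 2.6.1d, Salmon 1.4.0 and GRCh38 (hg38) are named in the submitters' processing notes; the scaling tool and the annotation are not given in the sources used here. The authors deposited estimated counts per gene, scaled by length and without a correction for depth, so they follow transcript length estimates as well as reads. All 12 columns of the table were matched to samples by their labels, and 0 columns lacked a sample.

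After rounding, genes were filtered with filterByExpr, libraries were scaled by TMM, and a robust quasi-likelihood model was fitted to all 12 libraries in 4 groups, using edgeR 4.0.16 and limma 3.58.1 under R 4.3.3. P-values were adjusted by Benjamini-Hochberg over the 14638 genes that passed, of which 14241 are reported and 397 have date-like or antisense names. The biological coefficient of variation was 10.4%. CPM use the TMM library sizes, and the SE of a log2 fold change is its size divided by the square root of F. The scripts were first tested on simulated data of known fold changes.

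The genes compared and the 47 pathway and 7 marker lists were chosen with earlier results of these data known. The lists hold 1403 symbols; 1402 were matched, 21 by an earlier name. Named genes are the 12 largest rises and falls among called genes of at least 5 CPM in the higher group without overlap of libraries, the 8 furthest from every other group in each direction, and for each list the called members of lowest p, at most 4. Further members named to complete a small count or a pathway's roles, such as IFNAR1, EPCAM, SLC7A11 or CA9, were chosen after their values were seen. Results of some genes are not reported here. Coordinates are GRCh38 from GENCODE v29 and promoter windows are from RefSeq on GRCh38.p14. The alternatives tried were RLE scaling, DESeq2 1.42.0, a stricter filter and none, a model of lineage 13 and Pop only, counts thinned to equal depth, a replicate block, leaving out each library, a test against a 1.5-fold change, adjustment over the reported genes alone and, chosen after seeing the data, leaving out Pop replicate 1 together with lineage 13 replicate 3.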

Additional observations from a re-analysis of the deposited data

How the results depend on the processing

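The counts of genes called higher (2966) and lower (3500) in lineage 13 stayed within 1.5 times of these values under every alternative but one. Leaving out single libraries gave 2459 to 2962 higher and 3039 to 3709 lower, and leaving out Pop replicate 1 with lineage 13 replicate 3, chosen after seeing the data, gave 2972 and 3697. DESeq2 called 2993 higher and 3672 lower, and fits of lineage 13 and Pop alone 2448 and 2868. The exception was the test against a 1.5-fold change, a stricter question by construction, with 382 higher and 1310 lower, and with 48 higher and 244 lower against each of Pop, 03 and 10. A filter of 5 CPM in 3 libraries, which tests fewer genes, left 142 genes higher and 550 lower at 2-fold or more. Replicate numbers did not pair the samples, since the deviations of same-numbered libraries correlated at -0.18, 0.05 and -0.39, and the fit with a replicate block called 2813 higher and 3366 lower. Of 3528 values for 223 named genes under 16 alternatives, 3463 kept their direction and call, 65 lost the call and 0 reversed. Of those lost, 52 were under the 1.5-fold test. AXL lost its call without some libraries (edgeR adjusted p 0.052 to 0.094), and so did S100A1 (0.052 to 0.11) and HSPA2 (0.055 and 0.059). Genes near 0 counts in lineage 13 are limited by depth: at 0.0285 CPM or less, absence and a very low level cannot be told apart.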

Other observations

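Single tumor suppressor and developmental genes held further differences. Among 24 tested p53 targets and cell cycle inhibitors 3 were higher (12.5%) and 7 lower (29.2%) in lineage 13 than in Pop. Over all genes 20.8% were higher and 24.6% lower. CDKN1A, the inhibitor p21, was at 199.6, 161 and 147 CPM in lineage 13, against 73.3, 80.6 and 84.4 CPM in Pop, 2.13-fold higher (log2 fold change 1.09 ± 0.11, edgeR adjusted p = 3e-06). TP53I11, a p53-induced gene, was at 0.32, 0.361 and 0.20 CPM in lineage 13, against 5.9, 7.12 and 6.81 CPM in Pop, 22.2-fold lower (log2 fold change -4.47 ± 0.21, edgeR adjusted p = 3.2e-09). The libraries of both genes did not overlap between the groups. Of 14 tested HOX genes, which record position along the body axis, 7 were lower (50%) and none higher. They were led by HOXB6 (at least 13.6-fold lower), HOXB5 (log2 fold change -3.19), HOXD1 (log2 fold change -1.18) and HOXD3 (log2 fold change -1.13). A further 17 HOX genes were not tested, and under the filter of 5 CPM in 3 libraries 0 were lower. Against lineage 03, 5 HOX genes were higher and 2 lower, and against lineage 10, 3 and 1. Cadherins and protocadherins had 8 of 19 lower (42.1%) and 2 higher (10.5%), with a list median of -0.003. CELSR1, a cadherin of planar polarity, had a log2 fold change of -1.96.

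Genes of endoplasmic reticulum stress were lower in 11 of 20 cases and higher in 2 (none without lineage 13 replicate 2 or Pop replicate 1), with XBP1, a transcription factor of that response, at a log2 fold change of -0.94 and PDIA4, a disulfide isomerase, at -0.79. ATF4 targets, which answer amino acid stress, were lower in 12 of 27 cases (44.4%) and higher in 3 (11.1%). YAP and TAZ targets were lower in 13 of 26 cases and higher in 1, a call lost without lineage 13 replicate 2 or any Pop library, and the lower ones included ANKRD1 and AJUBA at -1.16 and -0.52. For NF-kappaB regulators and targets the counts were 8 of 20 lower (40%) and 4 higher (20%), the second close to the 20.8% of all genes. TNFAIP3, a brake on that pathway, had a log2 fold change of -0.68. Immediate early genes were lower in 10 of 30 cases (33.3%) and higher in 4 (13.3%), against 24.6% and 20.8% of all genes. The lower ones numbered 6 without lineage 13 replicate 2 or 3, and KLF4 was at -1.58. MAPK feedback genes had 5 of 20 higher (25%) and 6 lower (30%), near the 20.8% and 24.6% of all genes. Without Pop replicate 2 the higher MAPK feedback genes numbered 2. The tricarboxylic acid cycle had 8 of 27 lower (29.6%) and 3 higher (11.1%), against 24.6% and 20.8% of all genes. Pyruvate carboxylase, PC, was at -1.21. The lower genes of this list numbered 5 without lineage 13 replicate 2. The higher ones numbered 5 without Pop replicate 1, and 1 without lineage 13 replicate 1 or 3 or Pop replicate 2 or 3. The counts of the remaining lists were small and are set beside 20.8% of all genes higher and 24.6% lower. Of 17 genes of glutamine, aspartate and proline metabolism 4 were higher (23.5%) and 3 lower (17.6%). Of 17 heat shock chaperones 0 were higher and 3 lower (17.6%). Of 11 S100 genes 1 was higher (9.09%) and 4 lower (36.4%). Of 9 LXR targets 1 was higher (11.1%) and 3 lower (33.3%). Of 6 metallothionein and zinc exporter genes 0 were higher and 2 lower (33.3%). Without Pop replicate 1, 3 heat shock chaperones, 2 S100 genes and 2 LXR targets were higher.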
